A study of Mus musculus with 9 samples.

Results

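The genes described here are 10 stress-induced transcription factors of the AP-1, ATF and immediate-early families, namely Jun, Junb, Jund, Fos, Fosb, Fosl1, Fosl2, Atf3, Egr1 and Ddit3. They were chosen by name. All 10 were found among the 15228 genes with a deposited expression level, and 9 had a mean of at least 0.5 RPKM (reads scaled to exon length and library size) over all libraries and were tested. Fosl2, with a mean of 0.155 RPKM, fell under this filter and was described from a fit without it. The other 9 were at or above 3.11 RPKM in every library, so none of them passed the filter only through the group in which it was high.

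RNA was sequenced from mouse retinal cells sorted as retinal ganglion cells (RGCs) in 9 libraries, 3 in each of 3 groups. Ctrl cells came from normal intact retinas. ONC cells came from retinas after optic nerve crush with an intraocular injection of the vehicle, PBS, and TPEN cells from crushed eyes given TPEN, a membrane-permeable zinc chelator, in the same way, and both were taken on day 3. All mice were wild type and, per the methods of the study, C57BL/6J of both sexes, 6 to 8 weeks old at surgery, and injected with 3 μL per eye immediately after the crush (TPEN at 100 μM). The Ctrl eyes were neither crushed nor, as far as the labels say, injected, so crush and injection cannot be told apart in comparisons with Ctrl. Cells were sorted as CD90.2-positive and CD48-, CD15- and CD57-negative after enzymatic digestion of the retina. Nothing states whether separate mice gave the libraries of each group, so p-values measure the spread between these libraries, which may be technical.

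The proteins of the Jun family (Jun, JunB, JunD) and the Fos family (Fos, FosB, Fra-1 from Fosl1, Fra-2 from Fosl2) pair through leucine zippers to form AP-1, which binds the sequence TGANTCA. ATF3 and CHOP (from Ddit3) are stress-induced partners in the wider group of bZIP factors, CHOP acting downstream of ATF4 in the integrated stress response. EGR1 is a zinc finger factor induced through serum response factor within minutes of a stimulus. In axotomized RGCs, signaling from the kinase DLK to JNK is known to induce and phosphorylate Jun and to induce Atf3 and Ddit3, and enzymatic dissociation is itself known to induce Fos, Jun and Egr1 in many cell types.

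Library totals, worked out from the RPKM steps, ranged from 19946993 to 23109754 reads (median 22415632), and 3 reads, the limit for a gene with a count of 0, stood for 0.130 to 0.150 RPM (reads scaled to library size alone), a floor for counting error only. The labelled cell type was checked against its markers. Markers of rods summed to 16764 to 19877 RPKM per library, against 288 to 393 RPKM for the 9 listed of 12 RGC markers, and among all genes the RGC markers Rbpms, Slc17a6 and Pou4f1 ranked only 13805, 14020 and 14252 by mean level. Levels of the 10 genes describe the sorted mixture, and in such bulk samples fewer cells of a type and less RNA per cell cannot be told apart. Of 6 neutrophil markers looked for, 0 were listed.

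The 250 bases upstream of the RefSeq transcription start of Atf3, Jun, Fos and Ddit3 are given 5′ to 3′ on the gene's strand (RefSeq, GRCm38.p6). These were the members with a promoter entry that held a match to the letters searched. They were not the genes of largest change, since Jun, Fos and Ddit3 were called up- or downregulated in no comparison below. Capitals mark matches to the AP-1 and cyclic AMP response element (CRE) type letters searched.
Atf3, chr1:191183334-191183583, minus strand: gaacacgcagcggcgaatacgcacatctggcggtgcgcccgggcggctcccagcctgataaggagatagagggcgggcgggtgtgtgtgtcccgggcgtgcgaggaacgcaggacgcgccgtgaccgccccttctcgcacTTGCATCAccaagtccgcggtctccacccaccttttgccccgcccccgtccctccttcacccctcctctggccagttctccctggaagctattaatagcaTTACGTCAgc
Jun, chr4:95052223-95052472, minus strand: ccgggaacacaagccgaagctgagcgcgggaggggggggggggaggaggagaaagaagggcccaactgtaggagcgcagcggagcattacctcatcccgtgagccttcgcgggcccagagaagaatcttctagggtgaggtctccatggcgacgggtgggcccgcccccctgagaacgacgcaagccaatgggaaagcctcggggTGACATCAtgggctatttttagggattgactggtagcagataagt
Fos, chr12:85473640-85473889, plus strand: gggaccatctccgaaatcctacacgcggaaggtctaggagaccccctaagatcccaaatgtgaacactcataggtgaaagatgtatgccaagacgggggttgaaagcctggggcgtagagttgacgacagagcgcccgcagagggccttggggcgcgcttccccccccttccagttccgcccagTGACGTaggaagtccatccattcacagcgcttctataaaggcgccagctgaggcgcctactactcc
Ddit3, chr10:127290543-127290792, plus strand: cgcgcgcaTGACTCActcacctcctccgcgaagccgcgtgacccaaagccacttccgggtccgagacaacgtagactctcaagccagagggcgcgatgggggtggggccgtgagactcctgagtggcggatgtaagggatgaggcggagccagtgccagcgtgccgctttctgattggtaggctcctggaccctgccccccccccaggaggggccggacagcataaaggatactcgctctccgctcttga

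Counted back from the start site, the Atf3 stretch held the C/EBP-ATF letters TTGCATCA at -110 to -103 and the CRE-like letters TTACGTCA at -10 to -3. Jun held the AP-1-like TGACATCA at -45 to -38, the letters through which Jun is known to act on its own gene, Fos held the CRE core TGACGT at -66 to -61, and Ddit3 held the AP-1 letters TGACTCA at -242 to -236. The Fos stretch also held TATAAA at -33 to -28, in lower case above. Among 32851 mouse promoters of the same length, TTGCATCA occurred in 0.791%, TNACGTCA in 2.52%, TGACGTCA in 1.55%, TGACATCA in 2.93%, TGACGT in 6.47% and TGANTCA in 6.75% (both strands), and TATAAA in 7.59% on the gene's strand. The CRE forms overlap one another, so TTACGTCA also counts as a CRE core, read on the opposite strand. The CArG box bound by serum response factor, present in 1.47% of promoters, was also searched and was found in none of the 250-base stretches of the 8 genes with an entry. Egr1 was not among them, and the search says nothing of sites farther from the start, for Fos as for the others. Junb, Jund, Fosb and Fosl2 had no match to any of these letters in this window, which says nothing of the factors that bind there, and Fosl1 and Egr1 had no entry. The RefSeq start of Atf3 lay 34706 bases inside the deposited gene, which begins at another first exon, and that of Jund lay 1210 bases before the deposited gene.

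In ONC/Ctrl, the comparison that addresses the response to the crush, 3 of the 9 tested genes were upregulated (Junb, Atf3 and Fosl1) and none was downregulated when called at an adjusted p under 0.05 with at least a 1.5-fold change. The background over all 13566 tested genes was 4.58% upregulated and 0.752% downregulated. At an adjusted p alone, 5 of 9 were higher, with Ddit3 and Jund added, against a background of 11.7% higher and 6.97% lower. The median log2 fold change of the 9 genes was 0.28, against 0.017 over all genes tested. In limma, no member was lower at an unadjusted p under 0.05 (0 of 9), and 0 of 9 were lower with voom on the whole reads, against 13.2% and 14.4% of all genes.

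**Figure D1:**
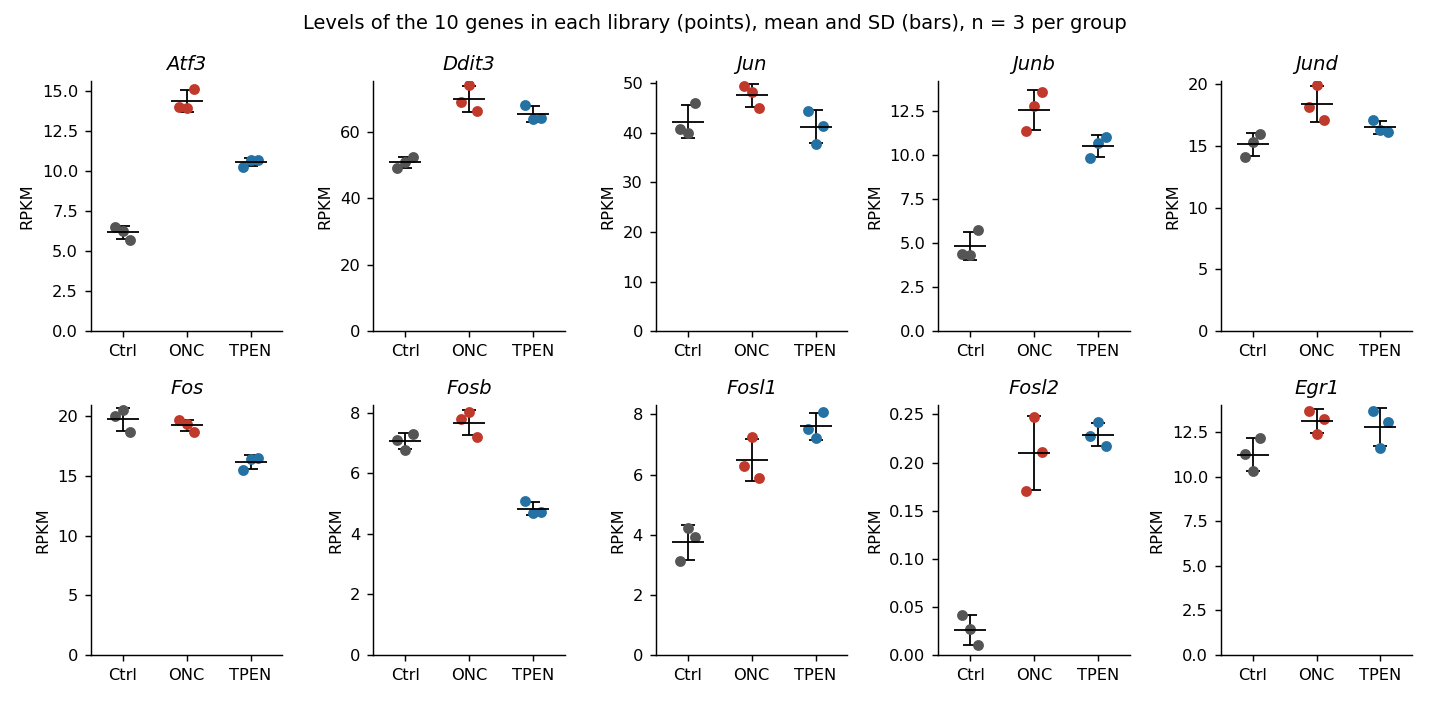
RPKM (y axis, from 0) of each of the 10 genes in the Ctrl, ONC and TPEN libraries, with a point per library and the mean and SD as bars. Atf3 and Junb sit apart in Ctrl and ONC, Fosb and Fos are lowest in TPEN, and Fosl2 stays under 0.25 RPKM throughout.

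Atf3, the stress-inducible repressor and activator used as a mark of axonal injury, lies on chromosome 1 (191170296 to 191218039, minus strand, GRCm38). Its level was 6.52, 6.27 and 5.71 RPKM in the Ctrl libraries, 14.0, 13.9 and 15.1 RPKM in ONC, and 10.2, 10.7 and 10.7 RPKM in TPEN. Every ONC library was above every TPEN library and every TPEN library above every Ctrl library. The means were 6.17 ± 0.415 RPKM in Ctrl, against 14.3 ± 0.682 in ONC and 10.5 ± 0.252 in TPEN (SD, n = 3). The log2 fold change was 1.20 in ONC/Ctrl (standard error, SE, 0.060, adjusted p = 8.83e-07 by limma). It fell by 0.44 on the log2 scale in TPEN/ONC (SE 0.060, adjusted p = 0.00252 by limma), a change of less than 1.5-fold, and stayed above Ctrl by 0.76 (adjusted p = 3.18e-05 by limma). Of the difference between the ONC and Ctrl means, 53.5% was still present in TPEN.

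Junb, on chromosome 8 (84974484 to 84978718, minus strand), encodes a Jun protein that activates many AP-1 sites less strongly than Jun and can restrain it. Its level was 4.38, 4.34 and 5.71 RPKM in Ctrl, against 11.3, 12.8 and 13.6 in ONC and 9.83, 10.7 and 11.02 in TPEN. Ctrl lay below both crushed groups in every library, and all TPEN libraries lay below all ONC libraries by a narrow margin. The log2 fold change in ONC/Ctrl, 1.37, was the largest of the 9 tested genes (SE 0.11, adjusted p = 1.94e-05 by limma). In TPEN/ONC it was -0.25 (SE 0.11, adjusted p = 0.214 by limma), with an adjusted p from 0.0509 to 0.434 over the other tests against no change, left-out libraries included, and so passed no threshold. In TPEN/Ctrl it was 1.12 (adjusted p = 1.26e-04 by limma). Its exons share 173 bases with Prdx2 on the opposite strand, a gene with group means of 5.95, 6.61 and 6.76 RPKM in Ctrl, ONC and TPEN, and the use of strand in counting is not given in the sources used here.

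Markers of microglia and macrophages moved in the same direction as Atf3 and Junb. All 10 tested markers were upregulated in ONC/Ctrl and again in TPEN/Ctrl, and 5 were downregulated in TPEN/ONC. Among all genes 4.58% were upregulated in ONC/Ctrl and 3.45% in TPEN/Ctrl, and 1.21% were downregulated in TPEN/ONC. In Ctrl, Tmem119, P2ry12, Aif1, Cd68, Itgam and C1qc had means of 0.067, 0.21, 0.27, 0.32, 0.33 and 0.34 RPKM, under the filter level. They were tested only through the groups in which they were high, so the counts against Ctrl were partly set by the filter. Cx3cr1, Csf1r, C1qa and C1qb were above the filter level in every group. The sum over the 11 listed markers was 4.09 to 4.999 RPKM in Ctrl, against 42.5 to 43.4 in ONC and 21.9 to 23.8 in TPEN, and none was missing from the table. Markers of astrocytes (3 of 4 listed) summed to 5.54 to 6.21 RPKM in Ctrl, against 27.2 to 28.3 in ONC and 17.3 to 20.0 in TPEN. The part of these cells in the levels of Atf3 and Junb was not tested.

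**Figure D2:**
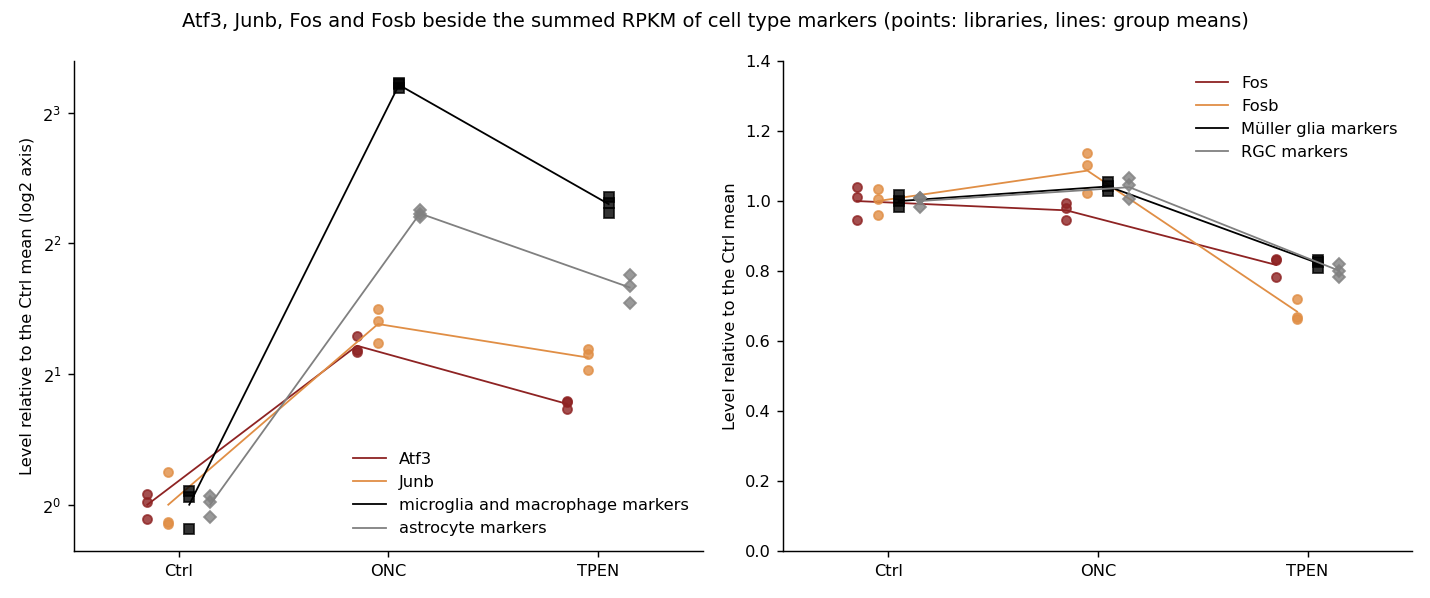
Levels relative to the Ctrl mean (y axis, log2 scale on the left and linear on the right) in each library of Ctrl, ONC and TPEN, as points with lines through group means. Left, Atf3 and Junb rise in ONC with microglia and macrophage markers (42.5 to 43.4 RPKM in ONC) and astrocyte markers. Right, Fos and Fosb are lowest in TPEN, as are the summed markers of Müller glia and RGCs.

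Fosl1, which encodes Fra-1, a Fos protein without a strong activation domain that is itself induced by AP-1, lies on chromosome 19 (5447703 to 5455945, plus strand). Its level was 3.11, 4.21 and 3.91 RPKM in Ctrl, against 6.30, 7.24 and 5.89 in ONC and 7.50, 7.22 and 8.08 in TPEN. Both crushed groups were above Ctrl in every library, while ONC and TPEN overlapped. The log2 fold change was 0.78 in ONC/Ctrl (SE 0.12, adjusted p = 0.00114 by limma) and 1.01 in TPEN/Ctrl (SE 0.12, adjusted p = 3.45e-04 by limma). In TPEN/ONC it was 0.23 (SE 0.12, adjusted p = 0.279 by limma), with a 95% interval from -0.027 to 0.49. In the test against a 1.5-fold change Fosl1 was not called (adjusted p = 1 in ONC/Ctrl and 0.152 in TPEN/Ctrl). Fosl1 and Fosl2 were the only members with a higher mean in TPEN than in ONC, and neither difference passed the threshold.

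Ddit3, the gene of CHOP, had the highest level of the 10 genes in all 3 groups and lies on chromosome 10 (127290774 to 127296288, plus strand). Its level was 49.1, 51.0 and 52.3 RPKM in Ctrl, against 68.8, 74.0 and 66.3 in ONC and 67.9, 63.9 and 64.1 in TPEN. Ctrl lay below both crushed groups in every library, and ONC and TPEN overlapped. The rise in ONC/Ctrl was small in fold, with a log2 fold change of 0.45 (SE 0.046, adjusted p = 9.51e-05 by limma), but amounted to a difference of means larger in RPKM than that of any other member. In TPEN/ONC the log2 fold change was -0.093 (SE 0.046, adjusted p = 0.271 by limma, 95% interval -0.20 to 0.0091), and in TPEN/Ctrl 0.36 (adjusted p = 6.44e-04 by limma). Its exons share 68 bases with Mars and 13 bases with Gm4189, both on the opposite strand.

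Jun itself, the partner around which AP-1 is built, lies on chromosome 4 (95049034 to 95052222, minus strand) and was already at a high level in uninjured eyes. It was at 40.8, 39.9 and 46.1 RPKM in Ctrl, against 49.4, 48.3 and 44.96 in ONC and 44.5, 37.8 and 41.5 in TPEN. The highest Ctrl library exceeded the lowest ONC library, whereas all ONC libraries were above all TPEN libraries. The log2 fold change in ONC/Ctrl was 0.17 (SE 0.071, adjusted p = 0.128 by limma), -0.21 in TPEN/ONC (SE 0.071, adjusted p = 0.119 by limma) and -0.035 in TPEN/Ctrl (adjusted p = 0.81 by limma). The first passed the threshold without Ctrl replicate 3 (log2 fold change 0.24, adjusted p = 0.0455 by limma) and, like the second, with voom on the whole reads (adjusted p = 0.0122 and 0.00646). Over all tests against no change, left-out libraries included, the adjusted p ranged from 0.0122 to 0.312 in ONC/Ctrl and from 0.00646 to 0.287 in TPEN/ONC. Its exons share 232 bases with Junos, an RNA of the opposite strand.

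Jund, a Jun protein with steady expression in many cells, lies on chromosome 8 (70698949 to 70700616, plus strand). It was at 14.1, 15.3 and 16.0 RPKM in Ctrl, against 18.2, 20.0 and 17.1 in ONC and 17.1, 16.3 and 16.1 in TPEN, so that Ctrl was lowest and ONC and TPEN overlapped. The log2 fold change in ONC/Ctrl was 0.28 (SE 0.065, adjusted p = 0.0143 by limma), and it lost the threshold without Ctrl replicate 1 (0.23, adjusted p = 0.054 by limma), the upper end of a range from 0.00627 over the tests against no change, and in the test against a 1.5-fold change (adjusted p = 1). In TPEN/ONC it was -0.15 (adjusted p = 0.202 by limma) and in TPEN/Ctrl 0.13 (adjusted p = 0.252 by limma). Its exons share 877 bases with Gm11175 on the opposite strand, whose group means were 20.5, 24.2 and 21.9 RPKM in Ctrl, ONC and TPEN, so the reads of Jund are uncertain.

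Egr1, the zinc finger factor of the list, was at 11.3, 10.3 and 12.2 RPKM in Ctrl, against 13.7, 12.4 and 13.2 in ONC and 13.7, 11.6 and 13.1 in TPEN. All ONC libraries were above all Ctrl libraries, and TPEN overlapped with both. The log2 fold change in ONC/Ctrl was 0.22 (SE 0.078, adjusted p = 0.0793 by limma), which passed the threshold with the replicate number as a block (0.0268), with voom (0.0103) and without Ctrl replicate 3 (0.0467), over a range of adjusted p from 0.0103 to 0.226 in the tests against no change. In TPEN/ONC it was -0.039 (adjusted p = 0.828 by limma) and in TPEN/Ctrl 0.18 (adjusted p = 0.163 by limma).

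Fosl2, the gene of Fra-2 on chromosome 5 (32135801 to 32157842, plus strand), was almost undetected in uninjured cells. Its libraries held 9, 6 and 2 reads in Ctrl, 38, 55 and 47 reads in ONC, and 44, 52 and 42 reads in TPEN, or 0.0262 ± 0.0156, 0.210 ± 0.0383 and 0.229 ± 0.0122 RPKM (SD, n = 3). Every crushed library was above every Ctrl library, and the ratio of means was 8.01 in ONC/Ctrl and 8.74 in TPEN/Ctrl, with 1 Ctrl library below the floor of 3 reads. In the fit without a filter, the log2 fold change of RPKM + 0.1, which understates such ratios, was 1.30 in ONC/Ctrl (SE 0.17, adjusted p = 4.18e-04 by limma), 0.093 in TPEN/ONC (adjusted p = 0.802 by limma) and 1.39 in TPEN/Ctrl (adjusted p = 4.60e-04 by limma).

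In TPEN/ONC, the comparison that addresses zinc chelation after the crush, Fosb was downregulated and no member was upregulated, against a background of 1.21% downregulated and 0.818% upregulated. At an adjusted p alone, 3 of 9 were lower (Fosb, Atf3 and Fos), against 4.14% of all genes lower and 3.24% higher. The median log2 fold change of the 9 genes was -0.21, against -0.011 over all genes tested. In limma, 0 of 9 were higher and 6 of 9 lower at an unadjusted p under 0.05, the 6 being Atf3, Fos, Fosb, Jun, Junb and Jund, against 9.63% higher and 12.3% lower among all genes. With voom 0 were higher and 4 lower at an adjusted p under 0.05, against 5.45% and 6.99% of all genes.

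Fosb, a Fos protein induced by repeated stimulation whose splice form ΔFosB is long-lived, lies on chromosome 7 (19302696 to 19310051, minus strand). It was at 7.10, 6.77 and 7.30 RPKM in Ctrl, against 7.78, 8.03 and 7.21 in ONC and 5.08, 4.68 and 4.72 in TPEN. The Ctrl and ONC libraries overlapped, and all TPEN libraries lay below both. It fell by 0.66 on the log2 scale in TPEN/ONC (SE 0.063, adjusted p = 3.19e-04 by limma) and by 0.54 in TPEN/Ctrl (SE 0.063, adjusted p = 3.98e-04 by limma). In ONC/Ctrl the log2 fold change was 0.12 (adjusted p = 0.236 by limma, 95% interval -0.023 to 0.26). With a pseudocount of 1 RPKM the fall in TPEN/ONC kept an adjusted p under 0.05 but was 0.57 on the log2 scale, under 1.5-fold.

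Fos, the classical immediate-early partner of Jun, on chromosome 12 (85473890 to 85477273, plus strand), had its lowest level in TPEN as Fosb did. It was at 20.0, 20.6 and 18.7 RPKM in Ctrl, against 19.6, 19.3 and 18.7 in ONC and 15.5, 16.4 and 16.5 in TPEN. Ctrl and ONC overlapped, with a log2 fold change of -0.038 (SE 0.047, adjusted p = 0.634 by limma, 95% interval -0.14 to 0.067), and every TPEN library lay below them. It fell by 0.25 on the log2 scale in TPEN/ONC (SE 0.047, adjusted p = 0.0121 by limma) and by 0.29 in TPEN/Ctrl (SE 0.047, adjusted p = 0.00293 by limma), both less than 1.5-fold. Without ONC replicate 1 the adjusted p in TPEN/ONC was 0.0539, in a range from 0.00566 to 0.0539 over all tests against no change, and the fall was also lost in the test against a 1.5-fold change (adjusted p = 1).

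Summed markers of Müller glia and of RGCs were also lowest in TPEN. Markers of Müller glia, the 7 of 7 listed, summed to 534 to 553 RPKM in Ctrl, against 559 to 572 in ONC and 440 to 451 in TPEN, and the 9 listed RGC markers to 362 to 372, 371 to 393 and 288 to 303 RPKM. In TPEN/ONC, 3 of 7 tested Müller glia markers were lower and 1 higher at an adjusted p under 0.05, and 3 of 6 tested RGC markers lower and 1 higher. Among all genes 4.14% were lower and 3.24% higher. Apoe, which macrophages also express, held much of the Müller glia sum (means of 172, 268 and 178 RPKM in Ctrl, ONC and TPEN), while Glul (173, 116 and 103 RPKM) and Rlbp1 (125, 111 and 94.6 RPKM) were highest in Ctrl. Nefl held most of the RGC sum (258, 264 and 198 RPKM). The RGC marker Thy1 went the other way and was highest in TPEN (4.74, 5.35 and 7.12 RPKM). The Müller glia marker Aqp4 was also higher in TPEN than in ONC (9.60, 7.66 and 9.44 RPKM). The markers of either type thus did not move as 1 set. Markers of cones moved in the opposite direction, with all 6 upregulated in TPEN/ONC (0.818% of all genes) and sums of 111 to 119 RPKM in ONC and 199 to 202 RPKM in TPEN. Sums of rod markers (16764 to 16982 RPKM in ONC, 17980 to 18086 in TPEN) and bipolar markers (72.1 to 73.6 and 75.6 to 79.3) were also higher in TPEN than in ONC. The same held for amacrine markers (28.2 to 29.1 and 33.3 to 35.3) and endothelial markers (15.7 to 16.1 and 16.8 to 17.8). The part of these shifts in the levels of Fos and Fosb was not tested.

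In TPEN/Ctrl, 3 of 9 genes were upregulated (Junb, Fosl1 and Atf3) and none downregulated, against 3.45% and 0.457% of all genes tested. At an adjusted p alone, Ddit3 was also higher, which made 4, and Fos and Fosb were lower, against 8.36% higher and 5.01% lower. In limma, 2 of 9 were lower at an unadjusted p under 0.05, against 11.4% of all genes, and none of them reached 1.5-fold, also with voom. The comparisons share libraries, so the values of a gene in them are not independent. Side by side, the log2 fold changes in ONC/Ctrl, TPEN/ONC and TPEN/Ctrl were 1.20, -0.44 and 0.76 for Atf3, 0.78, 0.23 and 1.01 for Fosl1, and 0.12, -0.66 and -0.54 for Fosb.

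**Figure D3:**
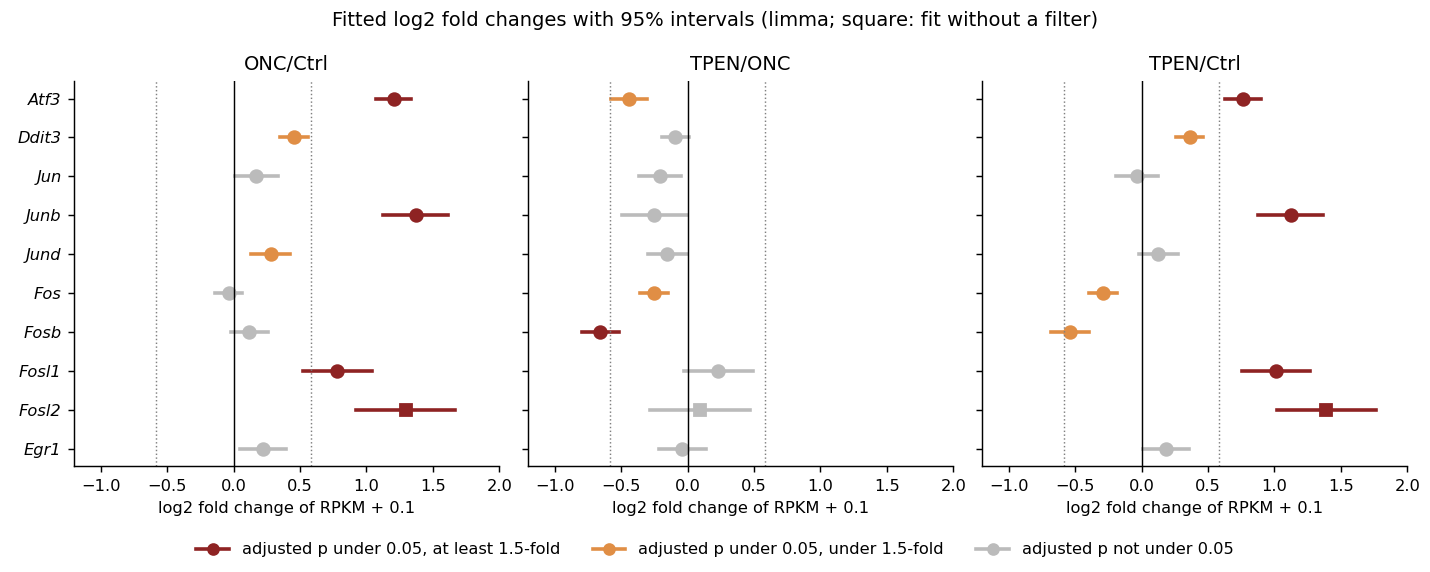
Fitted log2 fold changes of RPKM + 0.1 (x axis) of each gene (y axis) in the 3 comparisons, with 95% intervals as lines, colors for the call and dotted lines at 1.5-fold; squares mark Fosl2, fitted without a filter. Junb (1.37) and Atf3 (1.20) lie farthest right among the filtered genes in ONC/Ctrl, and Fosb (-0.66) farthest left in TPEN/ONC.

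AP-1 is a dimer, and its makeup depends on which partners are present, so the RNA of the 7 Jun and Fos genes was also expressed as shares of their summed RPKM, a scale per exon length. The sum was 92.8 ± 4.31 RPKM in Ctrl, against 112 ± 4.21 in ONC and 97.1 ± 3.31 in TPEN (SD, n = 3), and the ONC libraries were above all others. A share falls when the rest of the sum rises, so a lower share is not by itself a lower level. Jun held the largest share in every group, with means of 45.5%, 42.4% and 42.5% in Ctrl, ONC and TPEN, while its mean level was 42.2 RPKM in Ctrl and 47.6 in ONC. Junb took 5.17% of the sum in Ctrl, 11.2% in ONC and 10.8% in TPEN, and Fos 21.3%, 17.2% and 16.7%. The 3 Jun genes together took 65.4% to 69.4% in Ctrl, 69.9% to 70.3% in ONC and 69.4% to 71.6% in TPEN.

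Within the Fos genes the order by RPKM changed. The share of Fosl1 was 3.47% to 4.62% in Ctrl, 5.48% to 6.25% in ONC and 7.52% to 8.23% in TPEN, and that of Fosb 7.43% to 7.93%, 6.70% to 6.92% and 4.81% to 5.09%, with no overlap between any of the groups for either gene. The smaller Fosb share in ONC than in Ctrl was not a lower level. Its mean was 7.06 RPKM in Ctrl and 7.67 in ONC, with overlapping libraries. The ratio of Fosl1 to Fosb RPKM was 0.438 to 0.621 in Ctrl, 0.809 to 0.902 in ONC and 1.48 to 1.71 in TPEN. By RPKM, Fosb was thus the higher of the pair in every Ctrl and ONC library and Fosl1 in every TPEN library. Which gene is the higher rests on the deposited exon lengths, 6243 bases for Fosb and 1707 for Fosl1. In reads Fosb was the higher in every library, with 588 to 649 against 256 to 275 in TPEN. The ratio of Junb to Jun was 0.107 to 0.124 in Ctrl, 0.229 to 0.302 in ONC and 0.221 to 0.283 in TPEN, so it differed between Ctrl and both crushed groups and overlapped between these. These shares and ratios are descriptions with no test, and RNA shares do not give the shares of the proteins.

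**Figure D4:**
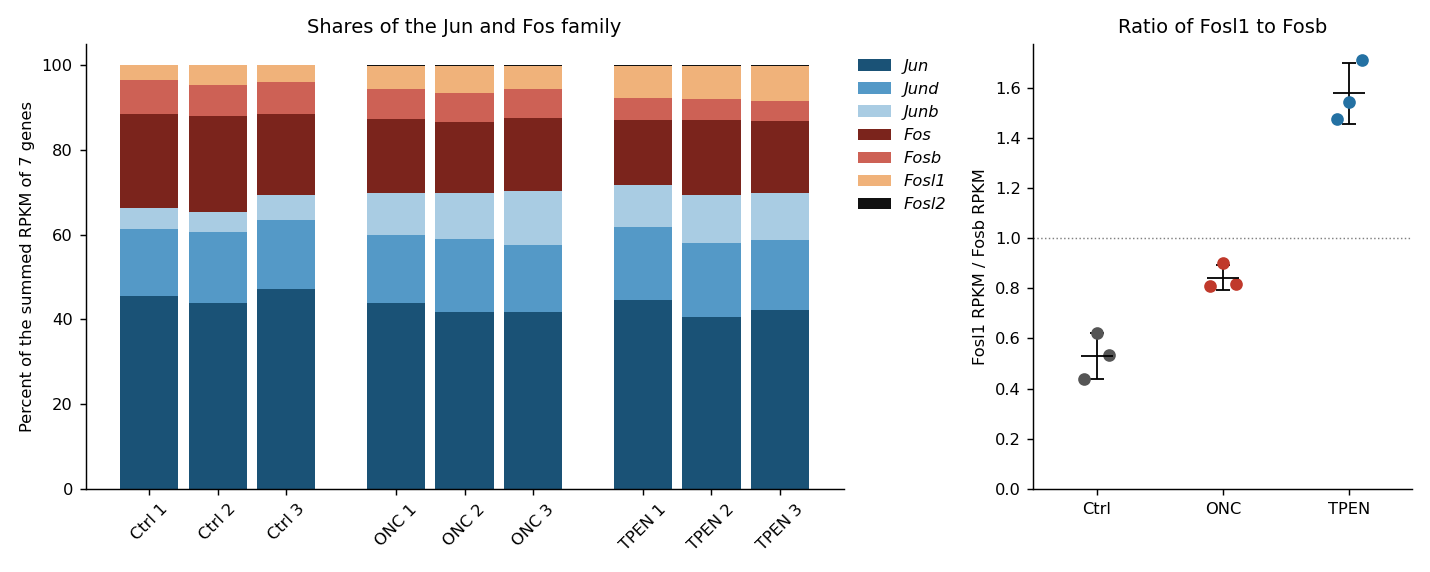
Left, percent of the summed RPKM of the 7 Jun and Fos genes held by each gene (y axis) in each of the 9 libraries. Right, ratio of Fosl1 to Fosb RPKM per library, with mean and SD. The Junb band is wider in ONC (mean 11.2%) than in Ctrl (5.17%), and the ratio lies above 1 in TPEN only.

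By level within a group, Ddit3 and Jun came at the top in all 3 groups, in that order, and Fosl2 last, with no overlap between these and their neighbors. Atf3 ranked 7th in Ctrl, where its libraries overlapped with those of Junb, 5th in ONC and 6th in TPEN, where it again overlapped with Junb. Other neighbors whose libraries overlapped were Fos and Jund in ONC and TPEN, Egr1 and Junb in ONC, and Fosb and Fosl1 in ONC. The ratio of Atf3 to Ddit3 RPKM was 0.109 to 0.133 in Ctrl, 0.188 to 0.228 in ONC and 0.151 to 0.167 in TPEN, with no overlap.

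The other genes of the pathway were taken from 5 lists, whose counts in ONC/Ctrl stand against the shares of all tested genes given above, 4.58% upregulated and 0.752% downregulated, and 11.7% higher and 6.97% lower at an adjusted p alone. Among other immediate-early genes, 26 of 32 were listed and 22 tested, of which 5 were upregulated and 1 downregulated in ONC/Ctrl (8 higher and 1 lower at an adjusted p alone, median log2 fold change 0.26). Over the 20 with at least 0.5 RPKM in every group, 4 were upregulated and 1 downregulated. Gadd45b, a stress sensor that acts on p38 and JNK signaling, was at 1.35 ± 0.200 RPKM in Ctrl, against 13.7 ± 1.32 in ONC and 10.6 ± 0.853 in TPEN, with a log2 fold change of 3.26 in ONC/Ctrl (SE 0.11, adjusted p = 4.51e-08 by limma) and 2.89 in TPEN/Ctrl (adjusted p = 2.02e-07 by limma). Nab2, a corepressor of EGR1, rose by 1.22 in ONC/Ctrl (adjusted p = 1.15e-04 by limma) and was at 2.46 and 2.45 RPKM in ONC and TPEN. Klf2, a Krüppel-like factor abundant in endothelium and in resting leukocytes, rose by 2.60 in ONC/Ctrl (adjusted p = 3.99e-05 by limma) and fell by 1.19 on the log2 scale in TPEN/ONC (SE 0.23, adjusted p = 0.0139 by limma), where it was the 1 gene of the list called in the limma fit on RPKM, against 1.21% of all genes downregulated, while voom called 2 and gave 4 lower at an adjusted p. That fall was not called without ONC replicate 1 or without ONC replicate 2, and Klf2 passed the filter through its level in ONC and TPEN, since it was at 0.291 RPKM in Ctrl. Cyr61, a matrix protein induced through serum response factor, was the 1 downregulated gene in ONC/Ctrl (-0.95, adjusted p = 0.0171 by limma), a call absent when Ctrl replicate 1, or either of ONC replicates 1 and 3, was left out. In TPEN/Ctrl 4 were upregulated, among them Dusp6, a phosphatase of ERK (1.30, adjusted p = 0.0311 by limma), and 0 lower at an adjusted p, with 2 lower at an unadjusted p under 0.05 (limma). With voom 2 were downregulated there, and 1 was in the fit of the 6 libraries compared, without ONC replicate 2 and without TPEN replicate 1. Among all genes in TPEN/Ctrl, 3.45% were upregulated and 0.457% downregulated. There 5.01% were lower at an adjusted p and 11.4% at an unadjusted p in limma.

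Other bZIP factors, possible partners or competitors of AP-1, were listed for 28 of 31 genes and tested for 27. In ONC/Ctrl 5 were upregulated (11 higher and 1 lower at an adjusted p alone, median 0.22), and 3 when the mean had to reach 1 RPKM. Over the 25 genes with at least 0.5 RPKM in every group, which leaves out Cebpa and Cebpb, 3 were upregulated and the median was 0.18. Cebpd, a C/EBP factor of acute inflammation, was at 0.840 ± 0.129 RPKM in Ctrl, against 3.63 ± 0.275 in ONC and 3.01 ± 0.357 in TPEN, a log2 fold change of 1.99 in ONC/Ctrl (adjusted p = 5.48e-06 by limma) and 1.73 in TPEN/Ctrl (adjusted p = 2.69e-05 by limma). Maff and Mafk, small Maf proteins that lack an activation domain, rose by 1.35 and 0.61 in ONC/Ctrl (adjusted p = 5.04e-04 and 0.00595 by limma). The 2 genes downregulated in TPEN/ONC, against 1.21% of all genes, were Cebpa (-0.88) and Cebpb (-1.24), named after their values were seen. Both are myeloid C/EBP factors that had a mean under 1 RPKM and passed the filter through the groups in which they were high, with 0.209 and 0.260 RPKM in Ctrl, 1.50 and 1.35 RPKM in ONC and 0.770 and 0.528 RPKM in TPEN. The list held 1 downregulated gene, not 2, without ONC replicate 1, 2 or 3 or without TPEN replicate 3. The markers of microglia and macrophages moved in the same direction, and their part was not tested. Atf4, which acts upstream of Ddit3, had a log2 fold change of 0.23 in ONC/Ctrl (SE 0.024, adjusted p = 1.49e-04 by limma) and -0.0074 in TPEN/ONC (adjusted p = 0.902 by limma), and was also named after its values were seen.

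Of the kinases and factors upstream of AP-1 and Egr1, all 24 were listed and 23 were tested. In ONC/Ctrl 2 were upregulated (3 higher and 1 lower at an adjusted p alone), namely Map3k5 and Nab2, the latter also counted among the immediate-early genes. The lower gene was Elk1 (-0.30, adjusted p = 0.02655 by limma), named after its values were seen. Map3k5, the gene of the JNK and p38 kinase kinase kinase ASK1, was at 2.28 ± 0.0493, 3.71 ± 0.247 and 3.09 ± 0.153 RPKM in Ctrl, ONC and TPEN (log2 fold change 0.68 in ONC/Ctrl, adjusted p = 2.62e-04 by limma). The median of the list was -0.013 in ONC/Ctrl. In TPEN/ONC it was -0.0056, and 0 of 23 passed an adjusted p under 0.05, with 2 higher and 3 lower at an unadjusted p under 0.05 in limma, and 1 higher and 2 lower at an adjusted p with voom. Among all genes 3.24% were higher and 4.14% lower at an adjusted p in limma, and 9.63% and 12.3% at an unadjusted p. With voom 5.45% and 6.99% of all genes were higher and lower at an adjusted p. Map3k12, the gene of DLK, and Mapk8, that of JNK1, had log2 fold changes of -0.13 (adjusted p = 0.248 by limma) and -0.081 (adjusted p = 0.42 by limma) in ONC/Ctrl, and both were named after their values were seen. These are levels of RNA, and the phosphorylation by which these kinases act was not measured.

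Genes with known AP-1 sites or induction in regrowing neurons were listed for 13 of 25 and tested for 8. In ONC/Ctrl 5 were upregulated (6 higher and 1 lower at an adjusted p alone), with a median of 1.20 against 0.017 over all genes. The 1 lower gene was Vegfa (log2 fold change -0.39, adjusted p = 1.49e-05 by limma), a fall of less than 1.5-fold, named after its values were seen. The median was 0.82 over the 5 genes with at least 0.5 RPKM in every group, 3 of them upregulated, since Cd44, Lgals3 and Mmp14 passed the filter only through some groups. In TPEN/ONC 2 were downregulated, against 1.21% of all genes, and the median was -0.30. Hmox1, the heme oxygenase of oxidative stress, was at 1.14 to 1.26 RPKM in Ctrl, against 10.04 to 10.7 in ONC and 1.69 to 2.01 in TPEN. It rose by 2.99 in ONC/Ctrl (SE 0.086, adjusted p = 1.55e-08 by limma) and fell by 2.40 on the log2 scale in TPEN/ONC (SE 0.086, adjusted p = 3.59e-07 by limma), with no overlap between the 3 groups. Vim, the intermediate filament of Müller glia and reactive glia, was at 19.0 ± 0.774, 57.1 ± 1.46 and 44.0 ± 3.10 RPKM in Ctrl, ONC and TPEN, a log2 fold change of 1.59 in ONC/Ctrl (adjusted p = 4.40e-08 by limma) and 1.21 in TPEN/Ctrl (adjusted p = 6.13e-07 by limma). Ccnd1, cyclin D1, rose by 0.82 in ONC/Ctrl (adjusted p = 6.94e-04 by limma). Without the filter on low genes 9 listed genes of ONC/Ctrl were upregulated and, in TPEN/ONC, 4 were downregulated. With a mean of at least 1 RPKM these counts were 3 and 1. Hmox1 is also expressed by macrophages, whose markers moved in the same direction, and their part was not tested.

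Partners and targets of CHOP were listed for 15 of 17 and tested for 14, and 1 was upregulated in ONC/Ctrl (4 higher and 1 lower at an adjusted p alone, median 0.18). That gene, Nupr1, a small stress-induced nuclear protein, was at 1.94 ± 0.324 RPKM in Ctrl, against 9.17 ± 0.865 in ONC and 6.44 ± 0.717 in TPEN, with a log2 fold change of 2.19 in ONC/Ctrl (adjusted p = 2.40e-06 by limma) and 1.69 in TPEN/Ctrl (adjusted p = 2.46e-05 by limma). In TPEN/ONC 0 of 14 reached 1.5-fold at an adjusted p under 0.05 and 3 were lower at an adjusted p alone, with 5 lower at an unadjusted p under 0.05 in limma and 4 lower at an adjusted p with voom. Among all genes 4.14% were lower at an adjusted p and 12.3% at an unadjusted p in limma, and 6.99% at an adjusted p with voom. Trib3 and Ppp1r15a, textbook targets of CHOP named after their values were seen, had log2 fold changes of -0.064 (adjusted p = 0.864 by limma) and 0.34 (adjusted p = 0.0104 by limma) in ONC/Ctrl.

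**Figure D5:**
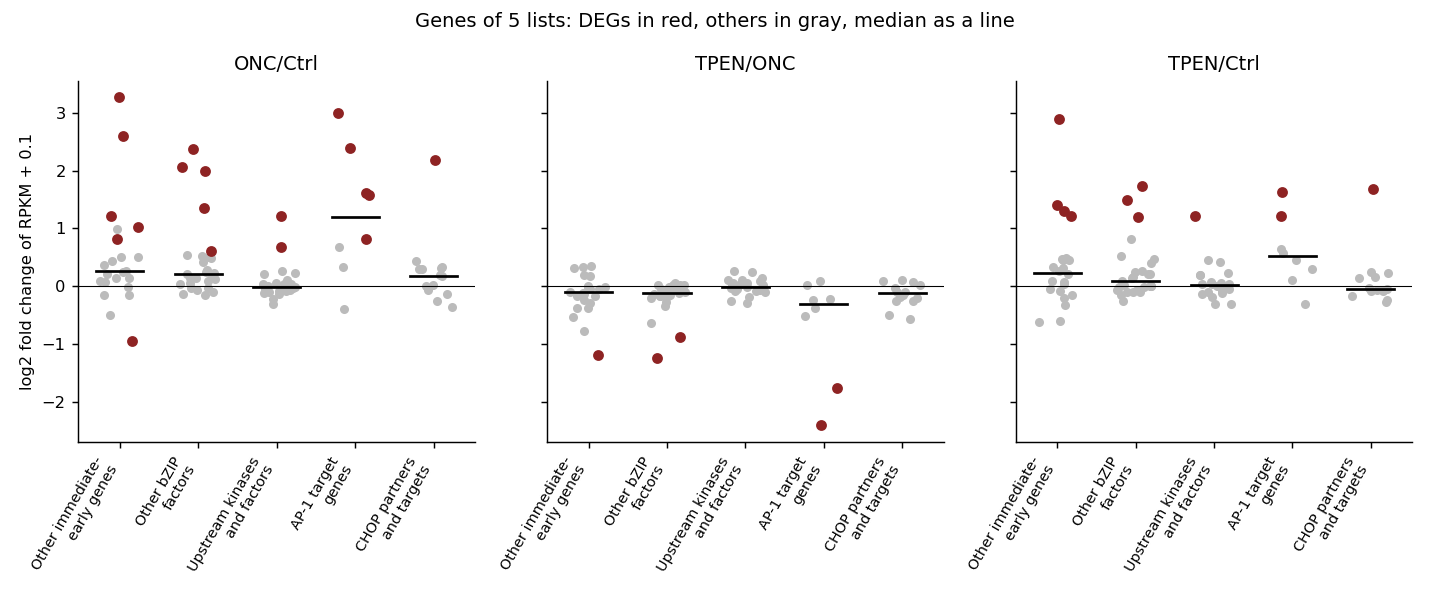
Log2 fold changes of RPKM + 0.1 (y axis) of the tested genes of the 5 lists (x axis) in the 3 comparisons, with differentially expressed genes in red, others in gray and the median of each list as a line. The medians in ONC/Ctrl range from -0.013 (upstream kinases and factors) to 1.20 (AP-1 target genes).

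Over the 9 libraries, which fall into 3 separate groups, the genes whose log2(RPKM + 0.1) was most like that of Atf3 were Gnai2, Ctsc and Parp14, with Pearson correlations of 0.997, 0.997 and 0.995. For Jun they were Gm21982 (0.986), the ribosomal pseudogene Rpl21-ps15 (0.985) and Strn4 (0.975), and for Fos they were Rbm25 (0.972), Rn7s1 (0.963) and AC099934.2 (0.959). These values are descriptions of these 9 libraries, chosen as the highest among 13566 genes. Ctsc, the gene of cathepsin C, was at 0.161, 0.972 and 0.583 RPKM on average in Ctrl, ONC and TPEN. Rbm25, an RNA-binding protein, was at 112.5, 110.9 and 100.4 RPKM. In Ctrl, Ctsc and Parp14 (0.435 RPKM) were under the filter level, while Gnai2 (29.4 RPKM) was above it. Ctsc and Parp14 passed the filter through ONC and TPEN, so their likeness to Atf3 may be partly set by the filter.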

How the data were processed

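Sorted cells of 3 groups with 3 libraries each were compared. Per the methods of the study, the authors prepared stranded mRNA libraries with molecular identifiers, sequenced them on a NovaSeq instrument, used STAR to map them to GRCm38/mm10 and edgeR to compare the groups. The submitters' processing notes name Trimmomatic 0.36. The counting program, the annotation, and whether identifiers were collapsed are not given in the sources used here. The authors deposited RPKM values, the exon length of each gene, and log2 fold changes, p-values and FDR values of their own comparisons, which were not used.

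Whole reads were recovered from all RPKM values, counting a value as whole within 0.01 of a read. The 13566 genes whose mean reached 0.5 RPKM were fitted as log2(RPKM + 0.1) with limma 3.58.1 in R 4.3.3, letting the variance follow the mean level and placing all 9 libraries in 1 model, with two-sided p-values, adjusted (Benjamini-Hochberg) over every tested gene. At an adjusted p under 0.05 with at least a 1.5-fold change, genes were called up- or downregulated. The pseudocount of 0.1 understates the fold changes of low genes. The deposited values are not counts, so a count test was not used, and voom on the recovered reads was an alternative, beside quantile normalization, a pseudocount of 1 RPKM, no filter, a mean of at least 1 RPKM, the 6 libraries compared, the replicate number as a block, a test against a fold change of 1.5, and leaving out each library. In data simulated for ONC/Ctrl with 13566 genes, 49 of 50 genes raised 2-fold and 32 of 50 raised 1.5-fold were called in the right direction, and 8 of 13366 unchanged genes were called. The simulation gave all genes the same setting for spread and changed only genes with a mean of at least 50 reads. These rates therefore do not cover low genes or genes of larger spread.

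The 10 genes and all lists were chosen with earlier results of these data known. Of each list, at most 3 differentially expressed genes per comparison and direction were named, those of largest change whose mean reached 1 RPKM, and for Atf3, Jun and Fos the 3 genes with the highest correlation. Marker lists covered RGCs, rods, cones, bipolar and amacrine cells, Müller glia, astrocytes, endothelium, microglia and macrophages, and neutrophils (0 of 6 listed). Endothelial markers (3 of 6 listed) summed to 13.4 to 17.8 RPKM, bipolar markers to 72.1 to 81.5 RPKM and amacrine markers to 28.2 to 35.3 RPKM per library. RefSeq promoter entries matched 8 of 10 genes.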

Additional observations from a re-analysis of the deposited data

How the results depend on the processing

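Over the alternatives, 437 of 459 values of single members kept their direction and their side of the threshold, 13 lost the threshold, 6 gained it and 3 changed sign. In several alternatives the direction could not change, since the fold change itself stayed the same. These were both changes of the filter, the 6 libraries compared, the block, the test against 1.5-fold and leaving out a library of the group not compared. Nor could a value gain the threshold in the test against 1.5-fold, so the 437 overstate the agreement. Those 3 were values that had not passed the threshold, with a log2 fold change of 0.030 for Egr1 in TPEN/ONC without TPEN replicate 2, and of 0.029 and 0.027 for Jun in TPEN/Ctrl without Ctrl replicate 3 and without TPEN replicate 2. Over all left-out libraries these ranged from -0.089 to 0.030 for Egr1 and from -0.091 to 0.029 for Jun. The count of members downregulated in TPEN/ONC, 1, was 0 with a pseudocount of 1 RPKM, with 6 lower at an unadjusted p under 0.05, and 0 in the test against a fold change of 1.5, where 0 members were lower at an unadjusted p under 0.05. Against 1.5-fold, 2 members, not 3, were upregulated in ONC/Ctrl (Atf3 and Junb) and 1, not 3, in TPEN/Ctrl (Junb). Without the filter, Fosl2 made 4 upregulated members in ONC/Ctrl. Same-numbered libraries did not deviate together (correlations of -0.067 to 0.035, against -0.046 to 0.07 for other pairs), so no sign of pairing by number was seen. With 3 libraries per group, this check cannot exclude pairing or a shared batch. With the replicate number as a block, Egr1 passed the threshold in ONC/Ctrl (0.22, adjusted p = 0.0268 by limma), no other member's call changed, and 3 members were upregulated in ONC/Ctrl as without it. Of all genes, 622 were upregulated in ONC/Ctrl, 943 without the filter and 297 in the test against 1.5-fold, and 102 were downregulated, 184 after quantile normalization, 31 with a pseudocount of 1 RPKM and 0 in the test against 1.5-fold (20 at an unadjusted p under 0.05). In TPEN/ONC, 111 were upregulated (39 with a pseudocount of 1 RPKM, 7 against 1.5-fold) and 164 downregulated (281 without the filter, 105 with a mean of at least 1 RPKM, 40 against 1.5-fold). In TPEN/Ctrl, 468 were upregulated (247 with a pseudocount of 1 RPKM, 148 against 1.5-fold) and 62 downregulated (102 after quantile normalization, 34 and 11). The Ctrl level of Fosl2 rests on 17 reads.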
